A study of Homo sapiens with 12 samples.

Results

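The genes described here are 39 human genes of DNA double-strand break and interstrand crosslink repair, given by name with no threshold on any value, out of 19962 protein-coding genes. Chromatin was taken from K562, a leukemia cell line of human origin, in which the endogenous EP400 carries a degradation tag (EP400-dTAG) and was removed in every group with 500 nM dTAGV-1 for 24 h. The cells were rescued either with exogenous WT EP400 or with a form without the TRRAP-binding region (ΔTRRAP), expressed from an integrated copy, with 1 clone for each line. The 12 libraries were 2 replicates each of input, H2A.Z ChIP and acetylated H2A.Z (H2A.Zac) ChIP in each line. For each mark the authors merged the replicates, compared the lines with MACS2 bdgdiff, and deposited separate lists of regions that were higher in WT (here lost), higher in ΔTRRAP (here gained) or unchanged.

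Each region carries only a log10 likelihood ratio between the lines. It grows with depth as well as with the change and is not a fold change. Whether it varies with the width of a region was not tested. Changed regions had a ratio of at least 3, the authors' cutoff. The lists give no value for a single library and no read depth, so no spread between replicates and no test between the lines could be given, and every difference below is a description of 1 comparison. Shares are given with Wilson 95% intervals where useful, which cover counting error only. Because each line is 1 clone, other differences between the clones cannot be told apart from the deletion, nor can a mark in more cells be told apart from more of it in each cell.

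When both strands of DNA break, the MRE11-RAD50-NBN complex detects the ends and activates the kinase ATM. Signals in the surrounding chromatin then recruit repair factors, and the ends are either ligated by end joining or resected and repaired from the sister copy by homologous recombination. The Fanconi anemia proteins release crosslinks between the strands and pass the resulting break to recombination. EP400 is the scaffold and motor of TIP60, the complex that exchanges H2A for H2A.Z in nucleosomes and acetylates histones, and H2A.Z sits in the nucleosomes on each side of the transcription start site (TSS) of most active genes.

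All 39 genes were marked at their starts. An H2A.Zac region lay within 1 kb of the TSS of 39 of 39 genes and an H2A.Z region within 1 kb of the TSS of 38, with LIG4, the ligase of end joining, as the exception. Among all protein-coding genes the shares were 64.2% and 62.4%. The cells were checked by 9 genes that mark K562 cells, of which 8 had an H2A.Zac region in this window and GATA1 had none, while of 6 genes of B cells, T cells, liver, nerve and muscle only CD3E had one.

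Where the marks changed at these starts, they were mostly gained in ΔTRRAP cells. Gained regions covered 9.16 kb of the windows and unchanged regions 45.6 kb for H2A.Z, and 16.5 and 52.0 kb for H2A.Zac. These lengths share bases, because some gained regions lie on unchanged ones, as H2A.Z does at RAD52 and H2A.Zac at ATR. A gained H2A.Z region lay in the TSS window of 19 of 39 genes (48.7%, interval 33.9% to 63.8%), against 13.9% of all protein-coding genes and 22.3% of those with any H2A.Z region there. A lost H2A.Z region lay in the window of 3 genes (7.69%), near the 6.56% and 10.5% of the same backgrounds. For H2A.Zac, 27 genes had a gained region (69.2%, interval 53.6% to 81.4%), against 36.8% of all protein-coding genes and 57.3% of those with an H2A.Zac region. A lost H2A.Zac region was found at 6 genes (15.4%), near the 16.7% of all genes and under the 26.0% of those with a region. From the 5′ end of the gene record in place of the canonical TSS, it was found at 9 (23.1%, against 16.9%). For H2A.Z the share of genes with a gain was thus above both backgrounds. For H2A.Zac it was above that of all genes, while the 57.3% of genes with a region lay inside its interval. The share with a loss was not clearly above either background. With a ratio of at least 5, H2A.Z was gained at 9 genes (23.1%, against 7.37%), and at 10 or more at 0 (against 0.621%). In regions of at least 500 bp, H2A.Zac was gained at 13 (33.3%, against 25.5%). The backgrounds at these cutoffs are over all protein-coding genes, of which many have no region of the mark (62.4% have one for H2A.Z and 64.2% for H2A.Zac). Shares over genes with a region were not taken at these cutoffs, so an excess over marked genes is not shown there.

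Unchanged regions lay in the same windows. An unchanged H2A.Z region lay in the TSS window of all 38 genes with H2A.Z there, and an unchanged H2A.Zac region in 38 of 39 (97.4%), near the 95.9% and 90.5% of all protein-coding genes with a region of that mark. Gained regions at these starts had median widths of 426 bp (H2A.Z) and 444.5 bp (H2A.Zac), against 406 and 606 bp over all genes. The highest likelihood ratio of a gained region at each gene had a median of 4.73 for H2A.Z and 5.85 for H2A.Zac, below the 5.12 and 6.42 over all protein-coding genes with a gain. Lost regions had the higher scores, with medians of 6.98 and 9.59 against 5.53 and 7.60 over all genes with a loss.

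**Figure D1:**
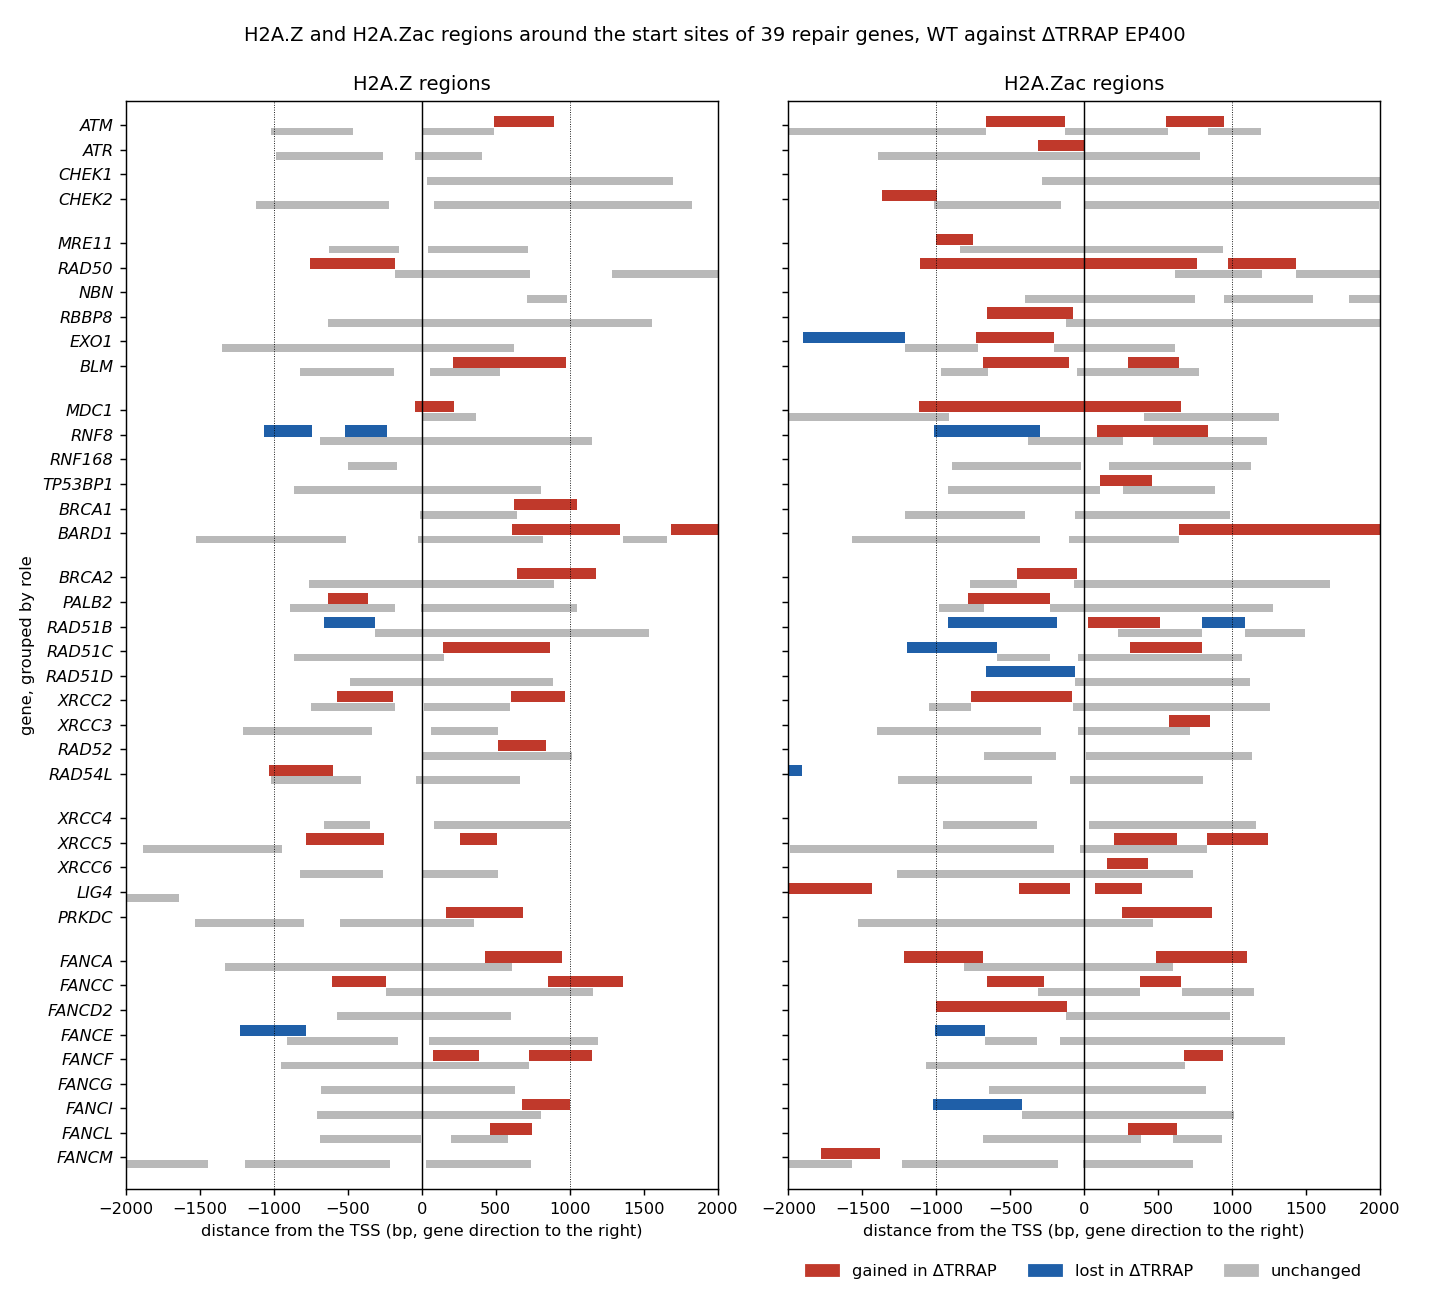
Regions of H2A.Z (left) and H2A.Zac (right) from 2 kb before to 2 kb after the TSS of each of the 39 genes, which are grouped by role. Red bars are regions gained and blue bars regions lost in ΔTRRAP cells, grey bars are unchanged regions and dotted lines mark the 1 kb window. Unchanged regions lie over or beside nearly every TSS, gains lie mostly to either side of it, and the H2A.Z losses at RNF8, RAD51B and FANCE lie upstream.

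Segments of 3 regions with high scores or opposed changes show what kind of sequence was involved. Each is the middle 200 bases of the region in hg38, on the plus strand, which is also the coding strand of these genes, and none overlaps an exon of the gene's canonical transcript. Capitals mark CCAAT (the NF-Y motif) or GGGCGG (the GC box) on either strand, and they are matches of letters, not sites of binding.
RAD50, gained H2A.Z, chr5:132556410-132556609: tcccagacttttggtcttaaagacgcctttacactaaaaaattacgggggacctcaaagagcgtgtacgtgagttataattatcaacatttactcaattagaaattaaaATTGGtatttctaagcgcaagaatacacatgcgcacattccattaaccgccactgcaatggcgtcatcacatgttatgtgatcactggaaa
FANCD2, gained H2A.Zac, chr3:10025780-10025979: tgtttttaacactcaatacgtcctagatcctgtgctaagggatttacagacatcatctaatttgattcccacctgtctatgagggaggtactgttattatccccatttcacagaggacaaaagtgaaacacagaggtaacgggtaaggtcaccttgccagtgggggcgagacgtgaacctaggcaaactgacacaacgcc
FANCI, lost H2A.Zac, chr15:89243160-89243359: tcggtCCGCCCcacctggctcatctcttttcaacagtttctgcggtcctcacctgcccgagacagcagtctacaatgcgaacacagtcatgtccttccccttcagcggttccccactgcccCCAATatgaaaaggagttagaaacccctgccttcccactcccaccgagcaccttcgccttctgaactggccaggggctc
The RAD50 segment is the poorest in G and C of the 3, at 38.5%, and the FANCI segment the richest, at 58%. Over all members, gained H2A.Z regions in the TSS windows had a median GC content of 46.6%, against 55.5% for the unchanged ones, whose centres had a median position of 56.5 bp after the TSS. For H2A.Zac the medians were 49.5% and 52.1%.

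Among the checkpoint kinases, H2A.Zac was gained at 3 of 4 genes (75%) and H2A.Z at 1 (25%), and nothing was lost. Over all protein-coding genes with a region of the mark, H2A.Zac was gained at 57.3% and lost at 26.0%, and H2A.Z at 22.3% and 10.5%. ATM, the kinase switched on by broken ends, gained both marks. Its H2A.Z gain had a likelihood ratio of 5.76 and lay from 486 to 891 bp after the TSS (chr11:108223553-108223958), and its H2A.Zac gains had ratios of 6.32 upstream and 5.55 downstream. ATR, which responds to single-stranded DNA, had an H2A.Zac gain of 3.85 that reached over the TSS itself, while its H2A.Z regions were unchanged. CHEK2, the effector kinase below ATM, gained H2A.Zac with a ratio of 6.85, in a region that ends 998 bp upstream and so only touches the window. CHEK1, the effector kinase below ATR, had only unchanged regions of both marks.

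Of the 6 genes that sense and resect ends, 5 gained H2A.Zac (83.3%, against 57.3% of all genes with a region). H2A.Z was gained at 2 (33.3%, against 22.3%), again with no loss of either mark in the window. RAD50, the ATPase of the MRE11-RAD50-NBN complex, held the highest H2A.Z gain in any of the 39 TSS windows, at 9.16, from 756 to 179 bp upstream (chr5:132556221-132556798). Around it lay a gained H2A.Zac region of 1873 bp that crossed the TSS, with a ratio of 7.39. Its partners behaved differently, since the nuclease gene MRE11 had an H2A.Zac gain of 3.57 at the edge of the window and NBN had no change there.

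RBBP8 encodes CtIP, which starts resection, and had an H2A.Zac gain of 7.97 just upstream of its canonical TSS. EXO1, which extends resection, gained H2A.Zac with a ratio of 4.32 nearer the TSS and lost it with a ratio of 8.15 outside the window, 1.21 kb upstream. BLM, a helicase that assists resection and dissolves recombination intermediates, gained H2A.Z with a ratio of 4.20 downstream, and H2A.Zac with ratios of 5.83 upstream and 4.24 downstream.

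The 6 genes of signalling at break sites were mixed. H2A.Z was gained at 3 (50%, against 22.3% of all genes with a region) and lost at 1 (16.7%, against 10.5%). H2A.Zac was gained at 4 (66.7%, against 57.3%) and lost at 1 (16.7%, against 26.0%). MDC1, the adaptor that binds phosphorylated H2AX, had the only H2A.Z gain that covered a TSS among the 39 genes, at 3.78. A gained H2A.Zac region of 1775 bp spread over the same start with a ratio of 7.83. BARD1, the partner of BRCA1, had a gained H2A.Zac region of 2185 bp downstream of its TSS, with a ratio of 9.04, over H2A.Z gains of 5.29 in the window and 5.84 just beyond it. BRCA1 itself gained H2A.Z at 7.40, from 623 to 1051 bp after the TSS (chr17:43124313-43124741), with its H2A.Zac regions in the window unchanged.

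RNF8, the ubiquitin ligase that acts after MDC1, went the other way upstream. It lost H2A.Z in regions with ratios of 6.44 and 3.78 and lost H2A.Zac with a ratio of 7.25, all upstream, and gained H2A.Zac with a ratio of 4.34 downstream. RNF168, the next ligase in the chain, was unchanged in the window for both marks, with a gain of H2A.Zac at 6.90 in intron 1. TP53BP1, whose protein protects ends from resection, had an H2A.Zac gain of 3.93.

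Of the 9 homologous recombination genes, H2A.Z was gained at 6 (66.7%, interval 35.4% to 87.9%) and lost at 1. Over all genes with an H2A.Z region the shares were 22.3% and 10.5%. H2A.Zac was gained at 6 (66.7%, against 57.3%) and lost at 3 (33.3%, interval 12.1% to 64.6%, against 26.0%). The intervals of the H2A.Z gains and the H2A.Zac losses overlapped those of every other role. The losses in the windows were all at RAD51B, RAD51C and RAD51D. RAD51B had the highest losses of both marks in any of the 39 windows, H2A.Z at 9.41 inside an H2A.Zac region at 13.7, both upstream of the TSS. On the other side of its TSS the H2A.Zac list held a gain of 5.85 and, farther on, a loss of 4.50.

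RAD51C combined an H2A.Zac loss of 10.8 from 1201 to 592 bp upstream with gains of H2A.Z at 4.73 and H2A.Zac at 3.77 downstream. RAD51D lost H2A.Zac upstream at 8.33 while its H2A.Z was unchanged. XRCC2 and XRCC3, which belong to the same protein family, gained marks and lost none there. XRCC2 had an H2A.Zac gain of 12.1 upstream (chr7:152676220-152676908), with H2A.Z gains of 3.48 under it and 5.62 downstream, and XRCC3 had an H2A.Zac gain of 3.24.

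BRCA2, a mediator of recombination, and PALB2, which links BRCA2 to BRCA1, gained both marks. At BRCA2 the gains were apart, with H2A.Zac at 6.35 upstream and H2A.Z at 4.49 downstream, while at PALB2 they overlapped upstream, at 5.10 and 3.51. The annealing factor RAD52 and the motor protein RAD54L gained only H2A.Z in the window, at 3.83 and 3.16, both close to the cutoff of 3. Beyond the window, RAD54L lost H2A.Zac at 7.87 and H2A.Z at 5.27, 1.91 and 2.25 kb upstream.

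End joining genes gained H2A.Zac at 4 of 5 (80%, against 57.3% of all genes with a region), without loss in the window. They gained H2A.Z at 2 of the 4 with an H2A.Z region (50%, against 22.3%), also without loss. XRCC5 and XRCC6 encode the Ku proteins that bind ends. XRCC5 had an H2A.Zac gain of 11.7 that begins 832 bp after the TSS, a weaker one of 3.93 closer to it, and H2A.Z gains of 4.27 and 4.04, with an H2A.Zac loss of 4.96 beyond the window, 2.03 kb upstream. XRCC6 had only an H2A.Zac gain of 3.56. PRKDC, the kinase recruited by Ku, gained H2A.Z at 6.39 and H2A.Zac at 5.34 over the same stretch downstream.

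LIG4 was the one member with no H2A.Z region in its window and no unchanged H2A.Zac region there, and it gained H2A.Zac at 9.44 downstream and 4.50 upstream. Its partner XRCC4 was unchanged at the start.

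Of the 9 Fanconi genes, H2A.Z was gained at 5 (55.6%, against 22.3% of all genes with a region) and lost at 1 (11.1%, against 10.5%). H2A.Zac was gained at 5 (55.6%, against 57.3%) and lost at 2 (22.2%, against 26.0%), both near the shares over all genes. FANCA, FANCC, FANCF and FANCL belong to the core complex that ubiquitinates FANCD2 and FANCI, and all 4 gained both marks. The H2A.Z ratios at these genes reached 5.19, 5.91, 5.64 and 3.20, and the H2A.Zac ratios 5.68, 7.80, 4.85 and 6.45. FANCE, another core subunit, lost both marks about 1 kb upstream, H2A.Z at 6.98 and H2A.Zac at 5.92. The core subunit FANCG and the translocase FANCM had no change in the window.

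FANCD2 and FANCI form a clamp on DNA, and their windows differed. FANCD2 had the highest H2A.Zac gain of the 39 windows, 12.3 from 999 to 117 bp upstream (chr3:10025438-10026320), with H2A.Z unchanged. FANCI was the only member at which one mark was only gained and the other only lost, H2A.Zac lost upstream at 12.2 and H2A.Z gained downstream at 3.50.

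Put together by gene, 33 of 39 starts had a change in at least 1 mark (84.6%, against 52.2% of all protein-coding genes and 78.0% of those with a region of either mark), and both marks were gained and neither lost at 14 (35.9%, against 9.83% and 14.7% of the same backgrounds, and 29.3% of the 41 replication genes). H2A.Zac changed without H2A.Z at 11 genes (28.2%, against 32.1% and 48.0% of the same backgrounds). H2A.Z changed without H2A.Zac at 3, which are BRCA1, RAD52 and RAD54L (7.69%, against 3.22% and 4.80%). Position by position, 14 of 23 gained H2A.Z regions in the windows were covered for at least 25% of their length by gained H2A.Zac (60.9%, against 65.5% over all protein-coding genes) and 0 by lost H2A.Zac. All 4 lost H2A.Z regions lay on lost H2A.Zac (against 75.7% over all genes). Of 34 gained H2A.Zac regions, 13 lay on gained H2A.Z (38.2%, against 19.3%) and 20 on unchanged H2A.Z (58.8%, against 73.4%). H2A.Z regions on H2A.Zac of the opposite direction were also rare over all genes, at 0.137% of gained and 0.289% of lost regions. The opposite directions at FANCI and RAD51C lay on different sides of the TSS.

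Gains and losses took different positions. Of 23 gained H2A.Z regions, 16 lay wholly downstream of the TSS (69.6%, against 44.6% over all protein-coding genes), 6 upstream and 1 across it. The downstream share was 69.2% in the 41 replication genes, 60% in the 69 other break and crosslink repair genes and 57.1% in the 34 excision and mismatch repair genes that are compared as lists. The offsets at which most genes had a gained H2A.Z region ran from 650 to 800 bp after the TSS, with 11 of 39 genes (28.2%) at each step, whereas over all genes the highest share was 300 bp after the TSS, with 5.30%. Gained H2A.Zac lay 300 bp upstream at 13 genes (33.3%, against 16.8% over all genes) and 350 bp downstream at 12 (30.8%, against 21.4%). Of its 34 regions, 18 lay wholly downstream (52.9%, against 34.0%) and 13 wholly upstream (38.2%, against 28.1%). All 4 lost H2A.Z regions and 6 of 7 lost H2A.Zac regions lay upstream, against 53.5% and 55.9% over all genes. Losses also lay mostly upstream in the other break and crosslink repair genes, at 80% and 91.7%, and in the replication genes, where 1 of 1 and 5 of 5 did. In the excision and mismatch repair genes 2 of 3 lost H2A.Z but only 3 of 7 lost H2A.Zac regions (42.9%) lay upstream. At the TSS base itself, H2A.Zac was gained at 3 genes, ATR, RAD50 and MDC1 (7.69%, against 17.6% over all genes).

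**Figure D2:**
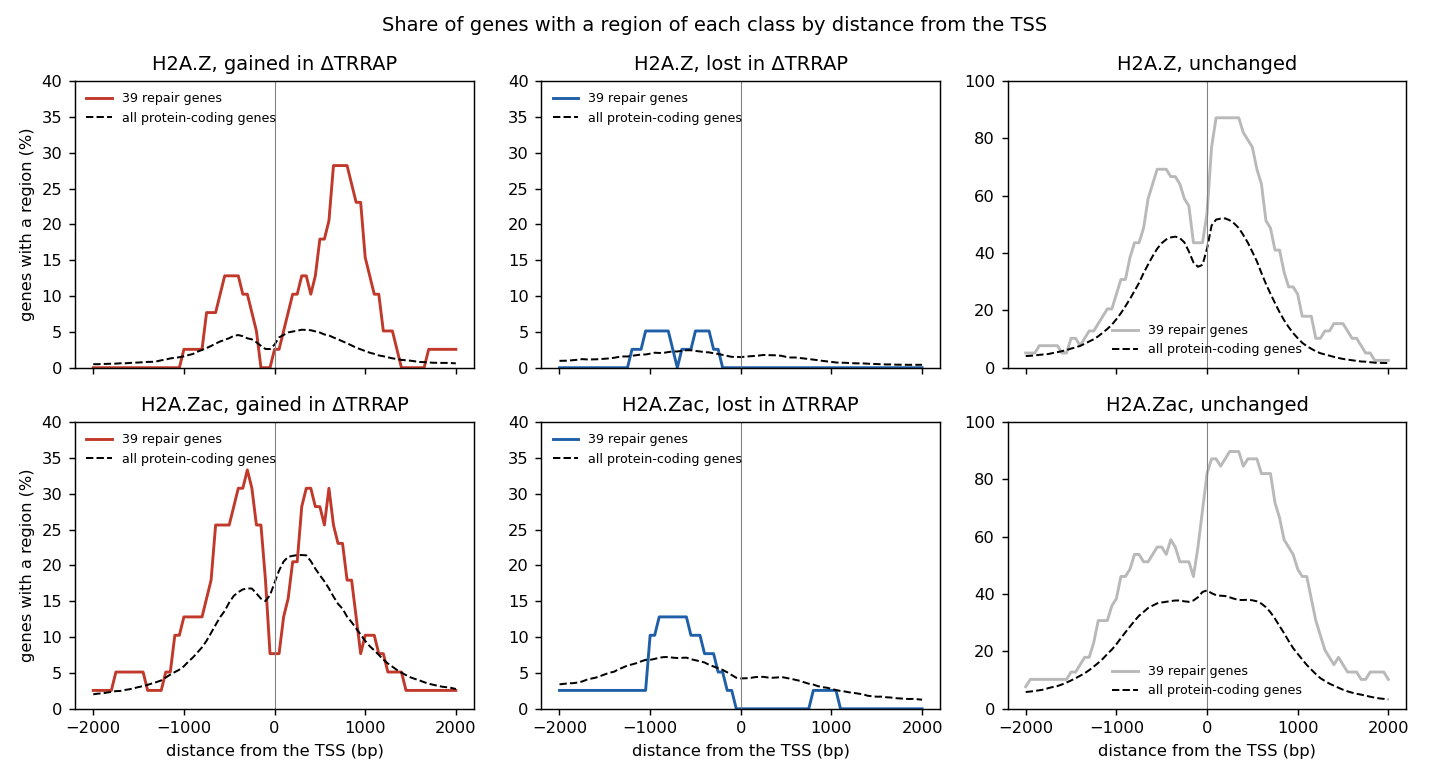
Percentage of genes with a gained, lost or unchanged region at each distance from the TSS, for H2A.Z (top) and H2A.Zac (bottom), with the 39 repair genes as coloured lines and all 19962 protein-coding genes as dashed black lines. Gained H2A.Z in the repair genes rises to 28.2% from 650 to 800 bp downstream, gained H2A.Zac has a peak on either side of a dip at the TSS, and losses lie upstream except for 1 H2A.Zac region, of RAD51B, 799 to 1085 bp downstream. The vertical axis of the unchanged panels reaches 100%, that of the others 40%.

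Lists of related genes were read in the same way. Among 69 other genes of break and crosslink repair, H2A.Z was gained at 24.6% (interval 16.0% to 36.0%) and lost at 7.25%, and H2A.Zac was gained at 58.0% and lost at 17.4%. Among 34 excision and mismatch repair genes, H2A.Z was gained at 20.6% and H2A.Zac at 64.7%. Among 41 genes of replication licensing and the replication fork, H2A.Z was gained at 48.8% (interval 34.3% to 63.5%) and H2A.Zac at 51.2%. The H2A.Z share of the 39 genes was therefore close to that of the replication genes and above those of the other repair lists, with overlapping intervals, while the H2A.Zac shares of all the repair lists overlapped.

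**Figure D3:**
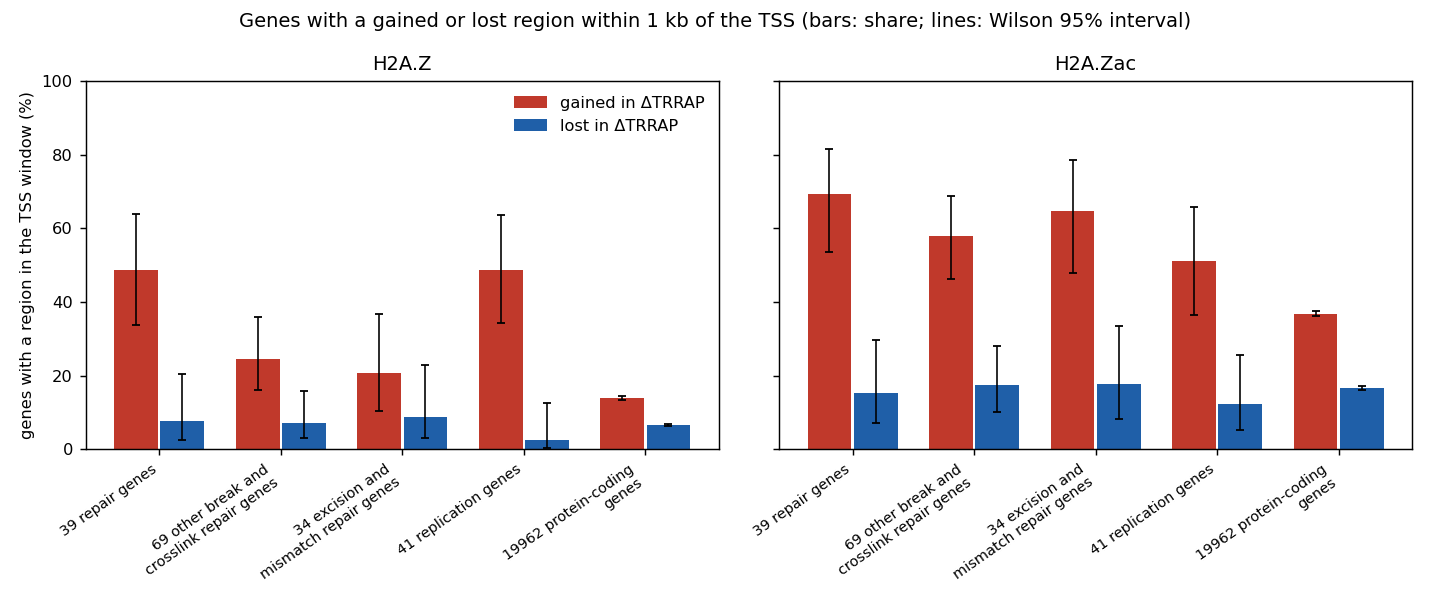
Percentage of genes with a gained (red) or lost (blue) region within 1 kb of the TSS in the 39 repair genes, 3 lists of related genes and all protein-coding genes, for H2A.Z (left) and H2A.Zac (right). Lines are Wilson 95% intervals. For H2A.Z the repair and replication genes reach 48.7% and 48.8%, and the other lists stay at or under 24.6%.

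Promoter layout was described from the annotation. A TSS of another protein-coding gene in the opposite direction lay within 1 kb upstream at 10 of the 39 genes (25.6%, against 9.60% of all protein-coding genes), among them ATM with NPAT, BRCA2 with ZAR1L and PRKDC with MCM4. At such shared promoters a change can lie on either gene. H2A.Zac was gained at 9 of these 10 genes and at 18 of the other 29, and over all protein-coding genes at 69.4% of those with such a neighbor and 33.3% of those without. H2A.Z was gained at 5 of the 10 and 14 of the 29, so its share was nearly equal with and without a neighbor (50% and 48.3%), whereas over all genes it was 26.7% and 12.6%. Only protein-coding neighbors were counted. Among the 29, EXO1, BLM, BRCA1, BARD1, FANCD2 and FANCL had the start of a long noncoding RNA in the opposite direction within 1 kb. A change there can also lie on that transcript.

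Promoter sequences of 300 bases from RefSeq (250 before and 50 after the start, hg38) were found for 35 members and 15316 protein-coding genes. CCGGAAG, the core of ETS factor motifs, was found on either strand in 37.1% of the members and 14.4% of all promoters, and the E2F words TTTCCCGC, TTTGGCGC, TTTCGCGC or TTTGCCGC in 17.1% and 4.50%. The E2F words were in 43.2% of the replication, 17.2% of the excision and mismatch repair and 12.1% of the other break and crosslink repair promoters. CCAAT was found in 45.7% of the members and 36.6% of all promoters, and in 56.8%, 55.2% and 43.1% of the same 3 lists. GGGCGG was found in 74.3% and 59.2%, and in 73%, 72.4% and 74.1% of these lists. TATAAA was in 0 of 35 and 9.64%, and in 2.7%, 0% and 8.62% of the lists. The ETS word was in 5 of the 16 promoters with a gained H2A.Z region and in 8 of the 16 with no change of H2A.Z. Its share in the other break and crosslink repair genes was 36.2%, in the excision and mismatch repair genes 17.2% and in the replication genes 10.8%.

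Over the whole genes with 2 kb to each side, the lists held 116 H2A.Z regions, of which 31 were gained (26.7%, against 15.8% over all protein-coding gene bodies) and 6 lost (5.17%, against 15.0%). They held 193 H2A.Zac regions, of which 65 were gained (33.7%, against 29.0%) and 20 lost (10.4%, against 21.2%). Gains thus made up 83.8% of changed H2A.Z regions (interval 68.9% to 92.3%, against 51.3%) and 76.5% of changed H2A.Zac regions (interval 66.4% to 84.2%, against 57.7%). Regions of different classes can lie beside or on each other, as at ATR and RNF8, so these are numbers of regions, not of peaks.

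Outside the TSS windows 8 H2A.Z regions were gained and 2 lost, and 31 H2A.Zac regions gained and 13 lost. Gains were thus 80% and 70.5% of the changed regions there, against 40.6% and 49.9% over all protein-coding genes. These shares were not counted alike. Those over all genes leave out regions at the start of any protein-coding gene, those of the members only regions at the members' own starts. Of the gained regions, 4 of the H2A.Z and 10 of the H2A.Zac regions lay within 1 kb of the TSS of another protein-coding gene, such as NBR1 beside BRCA1 (H2A.Zac at 10.7) and RPL10A beside FANCE, and so cannot be assigned to 1 gene. None of the lost regions did. Without regions near other starts, as in the shares over all genes, 4 H2A.Z regions were gained and 2 lost, and 21 H2A.Zac regions gained and 13 lost. RAD51B, whose record is 910 kb long, held 13 of the 31 gained and 2 of the 13 lost H2A.Zac regions. The regions near other starts and those of RAD51B were then set aside, a choice made after seeing the data. This left 8 gained and 11 lost H2A.Zac regions (42.1% gained). For H2A.Z, 2 gained regions and 1 lost region were left. The 49.9% over all genes for H2A.Zac also leaves out regions near other starts, but sets no gene aside as was done with RAD51B. The 42.1% was not above it, and the difference was not tested.

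The highest H2A.Zac gain and the highest H2A.Zac loss of the repair genes were at these distant regions. In contrast, the highest H2A.Z loss was that at the RAD51B start. Lost H2A.Zac regions had a median ratio of 8.33 in the TSS windows and 5.49 outside them. A lost H2A.Zac region of 27.5 lay in FANCC (chr9:95409887-95410822), 92.2 kb upstream of the canonical TSS and inside the gene record. Further H2A.Zac losses in FANCC had ratios of 5.48 next to it and 8.66 in a region over exon 6, although its canonical TSS gained both marks. In MRE11 a gained H2A.Zac region of 21.7 lay in intron 13 (chr11:94456721-94458147), 35.7 kb after the TSS, and in RBBP8 one of 15.8 lay in intron 5 (chr18:22970856-22971822).

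XRCC4, unchanged at its start, gained both marks in intron 7, 262 kb after the TSS, H2A.Zac at 15.1 and H2A.Z at 9.44 (chr5:83339719-83341327 for H2A.Zac). PRKDC had an H2A.Zac gain of 14.9 in intron 40. RAD51B had H2A.Zac gains of 13.6, 10.9 and 10.7 in intron 7 and of 12.9 near the end of its record, where H2A.Z was gained at 7.87. Other genes that were unchanged at the start had weaker changes elsewhere, NBN with an H2A.Zac gain of 7.99 near the TSS of DECR1 and a loss of 4.83, and FANCG and FANCM with gains of 4.87 and 4.90 at the starts of VCP and FKBP3.

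**Figure D4:**
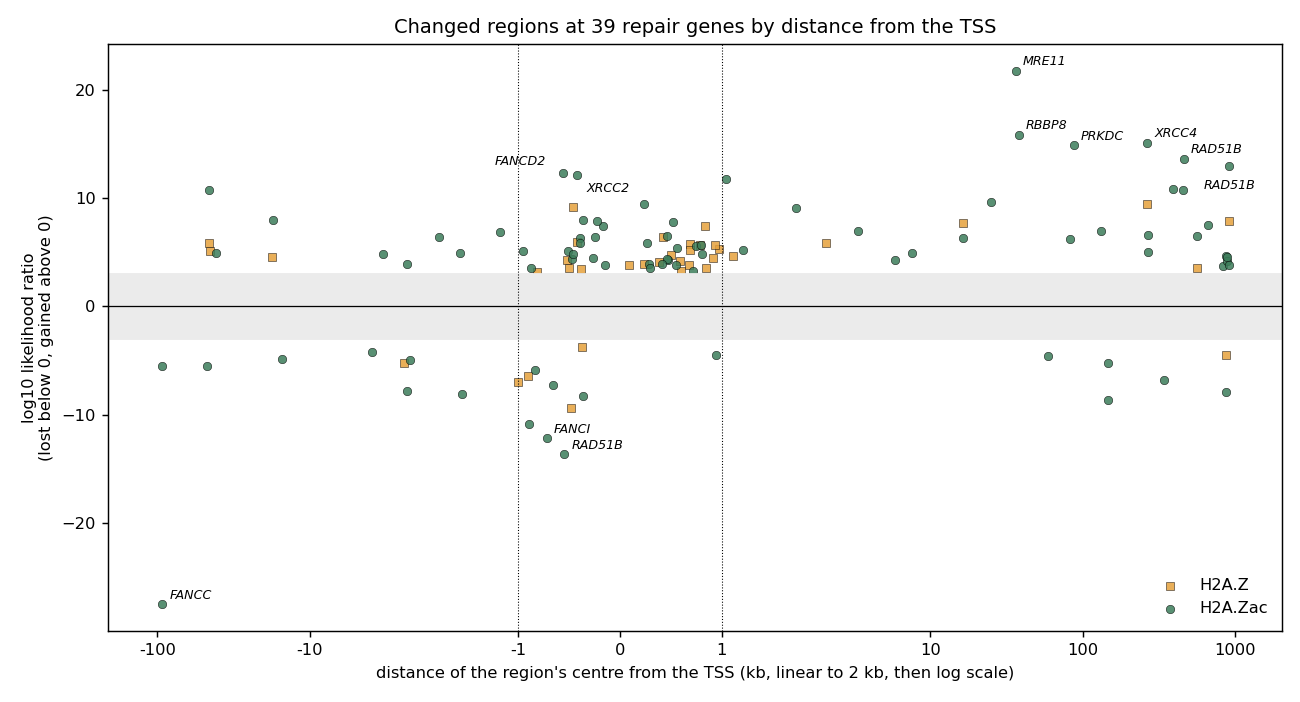
Changed regions of the 39 genes by the distance of their centre from the TSS (kb, linear to 2 kb and then on a log scale) and by the authors' log10 likelihood ratio, with gains above and losses below 0. Squares are H2A.Z, circles H2A.Zac, the grey band is the range under the cutoff of 3, dotted lines mark 1 kb, and genes with a ratio of 12 or more are named. The most extreme points lie outside the TSS windows, a loss of 27.5 in FANCC and a gain of 21.7 in MRE11.

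By their medians, the surroundings of the genes were not mostly gained. In the 5 Mb window that holds each gene, the share of changed H2A.Z regions that were gained had a median of 41%, against 41.6% in the genome, and that of H2A.Zac a median of 49.1%, against 50.4%. The window of RNF168 stood apart, with 4 of 93 changed H2A.Z regions gained, and that of BARD1 held only 2 changed H2A.Z regions, both gained. Without these 2 genes, H2A.Z was gained at 18 of 37 starts (48.6%) and H2A.Zac at 26 (70.3%). Copy number of the clones was not analysed here, and its part in these values was not tested.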

How the data were processed

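H2A.Z, H2A.Zac and input libraries of the WT and ΔTRRAP lines were grouped by their labels. The authors aligned reads to hg38 with Bowtie2 2.4.5, called peaks with MACS2 2.2.7.1, merged replicates, compared the lines with bdgdiff and kept regions with at least 25% of their length in peaks at an IDR of 0.05, which they had merged with bedtools 2.30.0. The deposited score of each region is their log10 likelihood ratio. These steps were not repeated.

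Genes and canonical TSSs were from GENCODE release 44. A region belonged to a gene when it overlapped its body with 2 kb to each side, or, separately, the 1 kb on each side of its canonical TSS. The canonical TSS lay over 1 kb from the end of the gene record at 10 of the 39 genes. Overlap between marks required 25% of a region's length. Python 3.11.15, pandas 2.3.3 and scipy 1.17.1 were used, and the overlaps were checked with simulated regions and with bedtools 2.31.1.

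The genes and lists were chosen with earlier results of these data known. Every member was accounted for, with full values for the 6 highest gains and losses per mark at the TSS, opposed or single-mark changes, missing regions and the 6 highest changes elsewhere. Alternatives were other TSSs, windows, score cutoffs, widths and overlaps. Gene expression, signal tracks and inputs were not analysed here. A selection of region sequences is printed, and an item is not reported here.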

Additional observations from a re-analysis of the deposited data

How the results depend on the processing

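Of 133 alternative values, 78 left out 1 gene each and could move little. Of the other 55, 42 stayed within 1.5 times the reported count or inside the interval of the reported share, and, with 1 exception, the gained shares over the gene bodies stayed over 50%. The exception was chosen after seeing the data, and kept regions outside the TSS windows, over 1 kb from other starts and without RAD51B, with shares of 66.7% for H2A.Z (3 regions) and 42.1% for H2A.Zac (19 regions). The share of starts with a lost H2A.Zac region moved to either side of that over all genes, at 9 genes (23.1%, against 16.9%) from the 5′ end of the gene record, 9 (23.1%, against 22.4%) over every transcript start, and 6 (15.4%, against 13.5%) with a likelihood ratio of at least 5. With a likelihood ratio of at least 5, H2A.Z was gained at 9 starts (23.1%, against 7.37% of all protein-coding genes). At 10 or more, no member had a gained (0, against 0.621% of all genes) or lost (0, against 0.551%) H2A.Z region at its start, and H2A.Zac was gained at 3 (7.69%, against 5.46%) and lost at 3 (7.69%, against 5.18%). With regions of at least 500 bp, H2A.Z was gained at 9 starts (23.1%, against 5.09%) and lost at 0 (against 3.28%), and H2A.Zac was gained at 13 (33.3%, against 25.5%). These settings keep fewer regions by construction. Their backgrounds are over all protein-coding genes, also those without a region of the mark, so they do not show an excess over marked genes. Over the gene bodies, the gained share of changed H2A.Z regions was 96.3% without the flanks and 100% in regions of at least 500 bp. At a ratio of 10 or more no changed H2A.Z region was left. Leaving out each gene in turn gave shares of 82.4% (without BRCA1) to 88.6% (without RNF8) for H2A.Z and 75.3% to 79.7% for H2A.Zac. Of the H2A.Zac regions of the members, 66.3% lay on H2A.Z at 25% overlap, and 57.5% did at 50%.

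No paired analysis was possible because the lists come from merged replicates and hold no value for a single library. Depth is unknown, so a change not listed was not detected at this depth and is not shown to be absent. The score depends on depth, so a shallow region can fall in the unchanged list although its signal differed. Wilson intervals treat genes as independent.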
